A study of Mus musculus with 16 samples.

Results

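The comparison described here set wild type germline stem cells of the Hif1a line against wild type cells of strain C57BL/6, all kept at 1% oxygen. Members were the 4 libraries of these 2 groups, chosen by their labels, out of 16 libraries in 8 groups. All genes with at least 1 CPM in at least 2 of the 16 libraries were tested, which left 14841 of the 21924 protein-coding genes in the table. CPM are reads per 1000000 reads assigned to these genes.

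The Hif1a wild type cells had a mixed 129 x C57BL/6 background, and their 2 library names carried the mark "6d". The C57BL/6 wild type cells are the labelled wild type for Top1mt, and their 2 library names carried the mark "2d". The labels do not say what these marks count, and the series text gives 2 days at low oxygen for the study as a whole. All 4 cultures grew on mouse embryonic fibroblasts with glial cell line-derived neurotrophic factor (GDNF) and fibroblast growth factor 2. They were sealed in plastic bags with a gas of 1% oxygen, 5% carbon dioxide and 94% nitrogen. Sample numbers were 17 and 18 in the Hif1a wild type names, which also end in "B", and 5 and 6 in the C57BL/6 names. Line, background, time mark and library mark go together, so their parts in any difference cannot be told apart. The sources used here do not give the number of clones, animals or cultures behind each group, nor any virus treatment of the Hif1a wild type cells. The p-values below measure only the spread between replicate libraries, pooled over all 16 libraries, which may be technical.

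Germline stem cells are the cultured form of spermatogonial stem cells, and GDNF acts on them through the receptor RET and its partner GFRA1. The transcription factor HIF1A is hydroxylated and degraded when oxygen is plentiful. In low oxygen it accumulates, pairs with ARNT and switches on genes of glucose import, glycolytic enzymes and lactate release. Cells of different mouse strains and lines can differ in all of these genes, and feeder fibroblasts contribute RNA of their own to such cultures.

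Hif1a wild type cells at 1% oxygen had lower RNA for most glycolytic enzymes and glucose transporters than C57BL/6 wild type cells at 1% oxygen. Their libraries, which also hold feeder RNA, had higher RNA for chemokines, acute phase proteins, fibroblast collagens and immediate early genes. Of 31 feeder fibroblast markers 16 rose and 8 fell, so not all followed the collagens. Genes on chromosomes 2, 6 and 19 were lower as whole bodies in Hif1a wild type. In all, 8627 of 14841 genes (58.1%) passed a Benjamini-Hochberg adjusted p of 0.05 in limma. Of these, 3602 (24.3%) were higher and 5025 (33.9%) lower in Hif1a wild type. With a log2 fold change of at least 1 or at most -1, 935 genes (6.30%) were called, 385 (2.59%) of them higher and 550 (3.71%) lower. These counts depend on the scale of the fold change: a pseudocount of 0.1 gave 628 higher and 925 lower, a pseudocount of 2 gave 285 and 355, edgeR gave 722 and 857, and DESeq2 gave 677 and 815. The median log2 fold change over all genes tested was -0.05. Fold changes are Hif1a wild type minus C57BL/6 wild type on the log2(CPM + 1) scale, which understates the change of low genes.

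Reads on the listed genes numbered 13721246 and 19766448 in the Hif1a wild type libraries, and 15959786 and 19305553 in the C57BL/6 libraries. A value of 1 read stood for 0.0506 to 0.0729 CPM in these 4 libraries, and 0 reads allow up to 3 by counting error alone. The Hif1a wild type replicates differed more than those of any other group, with a chi-square of 7.60 per gene against 2.26 in C57BL/6, where 1 would mean counting error only. Such bulk RNA levels cannot tell fewer cells of a type from less RNA per cell. The libraries of the groups did not overlap for 11195 of the 14841 genes (75.4%). With 2 libraries against 2, an exact permutation test of any value cannot give a two-sided p below 0.333, so calls rest on the spread shared by all genes and all 16 libraries. That shared spread can understate the spread of the Hif1a wild type pair. A fit to only the 4 libraries compared called 3077 genes higher and 4514 lower.

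The difference by chromosome was broad. Among genes with a mean of at least 10 CPM in either of the 2 groups, the median log2 fold change was -0.42 for 887 genes of chromosome 2. It was -0.43 for 510 genes of chromosome 6 and -0.51 for 386 genes of chromosome 19. Taken as ratios, C57BL/6 wild type exceeded Hif1a wild type by a median of 1.34 times on chromosome 2, 1.34 times on chromosome 6 and 1.42 times on chromosome 19. On these 3 chromosomes 84.7% to 89.9% of genes lay below 0, against 39.1% to 53.1% on the other 17, whose medians ran from -0.03 to 0.07. Each of the 4 pairings of a Hif1a wild type with a C57BL/6 library gave medians of -0.53 to -0.41 on chromosomes 2, 6 and 19, and of -0.05 to 0.10 elsewhere. The ranges of pairings did not overlap between the 2 sets of chromosomes.

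**Figure D1:**
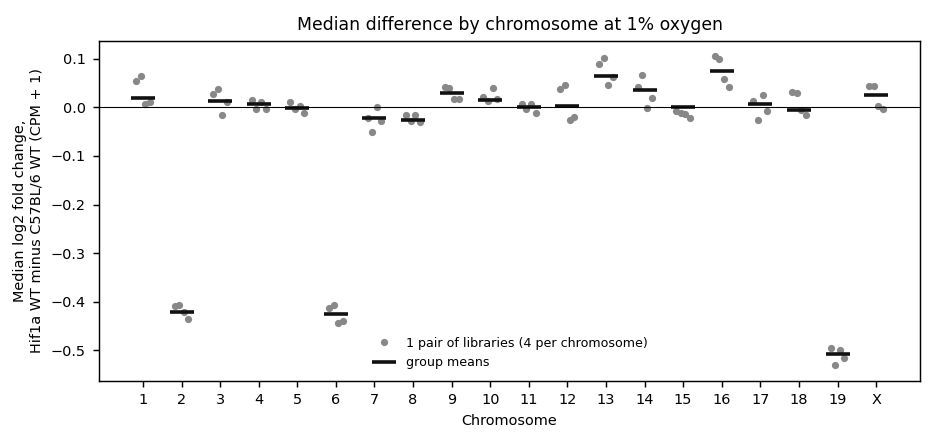
Median log2 fold change, Hif1a wild type minus C57BL/6 wild type at 1% oxygen, for each chromosome (genes with a mean of at least 10 CPM); points are the 4 pairings of libraries and bars the group means. Chromosomes 2, 6 and 19 sit between -0.53 and -0.41 in every pairing, and the other 17 between -0.05 and 0.10.

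The shift ran along the whole of each chromosome. When the genes of each chromosome were split by position into 5 stretches of like gene number, the medians lay between -0.55 and -0.38 on chromosomes 2, 6 and 19. On the other 17 chromosomes they lay between -0.10 and 0.14. Of 2391 tested genes on chromosomes 2, 6 and 19, 202 (8.45%) were called higher and 1627 (68.0%) lower in Hif1a wild type. On the other 17 chromosomes 3386 and 3391 of 12410 genes were called, 27.3% in each direction. The excess of lower calls over the whole table also depended on the scaling: with all chromosomes kept, median-of-ratios scaling gave 4310 higher and 4399 lower genes, and TMM scaling gave 4277 and 4422.

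Levels in each library showed where the shift lay. Each gene's log2 value was set against the median of its 8 group means, and medians were taken by chromosome. The median of the library's own chromosome medians was then subtracted. On chromosomes 2, 6 and 19 the chromosome medians were -0.09 to -0.04 in the 2 Hif1a wild type libraries at 1% oxygen, and 0.31 to 0.42 in the 2 C57BL/6 libraries. The 12 libraries left when the Top1mt KO pair is also set aside ran from -0.16 to 0.01. In the Top1mt KO libraries, which share the C57BL/6 background, chromosome 6 stood at 0.21 and 0.19, chromosome 2 at -0.05 and -0.06, and chromosome 19 at 0.00 and -0.02. The C57BL/6 wild type libraries were thus the ones apart from the rest on chromosomes 2 and 19, and were joined by Top1mt KO on chromosome 6. These are RNA levels, and chromosome copy number was not analysed here.

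**Figure D2:**
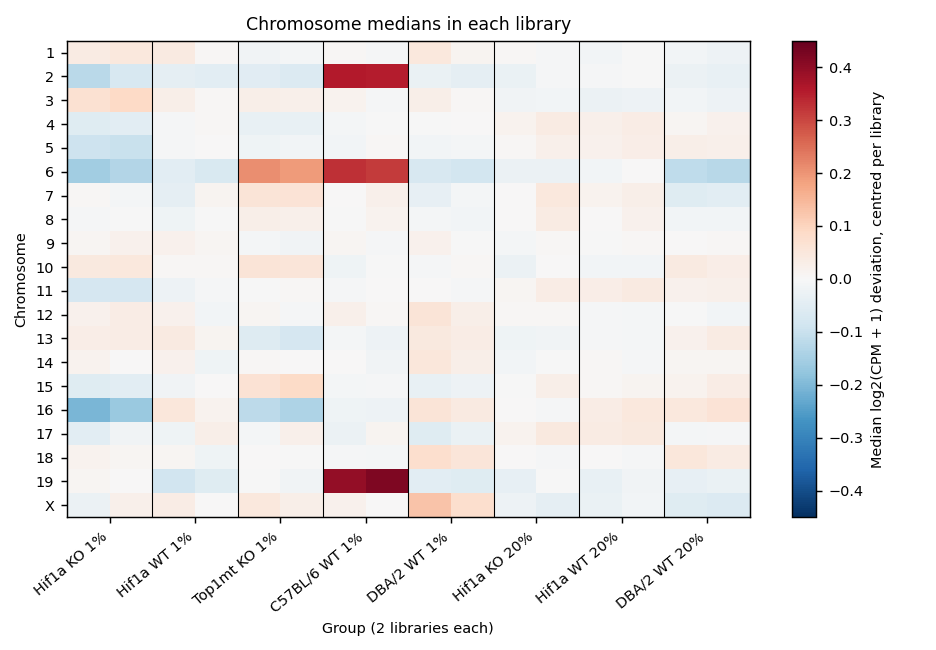
Median log2(CPM + 1) deviation of each chromosome's genes in each of the 16 libraries, centred on the median of the library's own chromosome medians. Red is higher. The C57BL/6 wild type columns are red (0.31 to 0.42) in the rows of chromosomes 2, 6 and 19, where the Hif1a wild type columns at 1% oxygen lie between -0.09 and -0.04.

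Since genes of most lists lie in part on these chromosomes, most gene lists below are also given without them. That exclusion was chosen after the shift was seen. Without them 12450 genes were tested, of which 3358 (27.0%) were higher and 3349 (26.9%) lower in Hif1a wild type. Counts of list members below stand against these shares outside the 3 chromosomes, against 68.0% lower and 8.45% higher on them, and against 33.9% lower and 24.3% higher over all genes. The median over all genes was 0.00 without the 3 chromosomes, and 343 genes (2.76%) were higher and 361 (2.90%) lower by a log2 fold change of at least 1.

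Promoters of 5 low oxygen response genes are shown because they carry ACGTG, a form of the core letters of the HIF binding motif. Capitals mark it on either strand in these promoters. Each is the stretch from 250 bases before to 50 bases after the start, 5′ to 3′ on the gene's strand, from RefSeq on GRCm38.p6. They are the glucose transporter gene Slc2a1 (chr4:119108495-119108794, plus strand), the glycolytic enzyme genes Pgk1 (chrX:106186850-106187149, plus strand) and Ldha (chr7:46845554-46845853, plus strand), the mitophagy receptor gene Bnip3 (chr7:138909457-138909756, minus strand) and the carbonic anhydrase gene Car9 (chr4:43506776-43507075, plus strand).
Slc2a1: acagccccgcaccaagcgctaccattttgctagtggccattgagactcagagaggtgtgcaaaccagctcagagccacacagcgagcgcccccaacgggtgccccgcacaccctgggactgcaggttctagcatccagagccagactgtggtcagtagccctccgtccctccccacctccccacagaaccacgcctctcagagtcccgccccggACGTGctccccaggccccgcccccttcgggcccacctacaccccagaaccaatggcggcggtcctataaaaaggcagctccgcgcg
Pgk1: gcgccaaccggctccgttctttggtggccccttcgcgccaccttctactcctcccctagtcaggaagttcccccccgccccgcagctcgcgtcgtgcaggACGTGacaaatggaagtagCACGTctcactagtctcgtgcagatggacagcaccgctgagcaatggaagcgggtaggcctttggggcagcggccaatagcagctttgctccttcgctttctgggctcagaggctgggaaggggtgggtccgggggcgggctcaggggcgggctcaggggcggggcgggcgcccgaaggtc
Ldha: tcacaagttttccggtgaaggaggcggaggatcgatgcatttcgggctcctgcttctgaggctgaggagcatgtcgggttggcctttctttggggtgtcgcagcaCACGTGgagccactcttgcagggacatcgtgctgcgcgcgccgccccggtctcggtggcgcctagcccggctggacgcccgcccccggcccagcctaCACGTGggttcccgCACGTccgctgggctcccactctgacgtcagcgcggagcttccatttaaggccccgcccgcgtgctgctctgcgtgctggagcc
Bnip3: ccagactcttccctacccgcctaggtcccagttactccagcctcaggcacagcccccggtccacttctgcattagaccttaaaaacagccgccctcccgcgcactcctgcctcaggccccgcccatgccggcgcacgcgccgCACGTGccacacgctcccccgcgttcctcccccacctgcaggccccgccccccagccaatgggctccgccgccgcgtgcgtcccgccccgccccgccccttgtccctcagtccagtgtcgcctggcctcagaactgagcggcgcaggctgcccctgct
Car9: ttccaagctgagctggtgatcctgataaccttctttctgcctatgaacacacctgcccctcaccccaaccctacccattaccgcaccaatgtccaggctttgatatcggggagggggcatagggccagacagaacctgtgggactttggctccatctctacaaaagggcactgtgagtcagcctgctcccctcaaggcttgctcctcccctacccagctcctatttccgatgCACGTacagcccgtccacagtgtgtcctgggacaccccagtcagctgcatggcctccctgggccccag
Matches on both strands numbered 1, 2, 5, 2 and 1 in that order, where the 6 letters CACGTG count as overlapping matches on both strands. Ldha has another listed promoter (chr7:46846832-46847131, plus strand) with 0 matches, which is not shown. ACGTG was held by 15 of 24 glycolysis genes with a listed promoter (62.5%), and by 20 of 26 other hypoxia targets (76.9%). Over all tested genes with a listed promoter the count was 3289 of 11589 (28.4%), and over all listed promoters it was 6447 of 32851 (19.6%). A match is a string of letters and not a measured binding site. Of the 5 genes shown, Slc2a1, Pgk1, Ldha and Bnip3 were lower in Hif1a wild type, while Car9 was higher. Pfkp and Car12, with 0 matches to ACGTG in their listed promoters, were lower as well, and Hif1a, with 3 matches, was higher. The form GCGTG was not counted in any of these numbers, and the Pfkp promoter holds it. Whether the motif goes with the direction of change was not tested.

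Glycolysis and glucose transport were lower in Hif1a wild type almost throughout. Of 25 tested genes 22 fell, against 33.9% of all genes, 1 rose, against 24.3%, and the list median was -0.69, against -0.05 over all genes. Without chromosomes 2, 6 and 19, 14 of 17 fell and the median was -0.54, where 26.9% of all genes outside these chromosomes fell, with a median of 0.00. The gene that rose was Slc16a1, a monocarboxylate transporter, with a log2 fold change of 0.46 (named after its value was seen). Summed over the list, Hif1a wild type had 5926 and 6625 CPM, and C57BL/6 wild type had 10290.0 and 10628 CPM. The sums were 3597 and 3624 CPM in Hif1a wild type at 20% oxygen, so both groups at 1% oxygen lay above that level. The series has no C57BL/6 library at 20% oxygen, so this level is that of the other line. The Hif1a wild type names at 20% carry neither "6d" nor "B". Differences between 1% and 20% oxygen here and below therefore go with these marks as well as with oxygen.

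The largest difference of the list was in Slc2a3, which encodes the high-affinity glucose transporter GLUT3 (chr6:122727809-122801640, minus strand, mm10). It had 61.8 and 54.7 CPM in Hif1a wild type, against 645.7 and 645.2 CPM in C57BL/6 wild type. Its log2 fold change was -3.45 (SE 0.06, adjusted p = 2.13e-18), far below the chromosome 6 median of -0.43. Hif1a wild type at 20% oxygen had 63.0 and 63.5 CPM, so the 2 Hif1a wild type groups lay close together, while Slc2a3 had 294.4 and 263.1 CPM in DBA/2 wild type at 1% oxygen. The level in C57BL/6 wild type was the highest of the 8 groups.

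Slc2a1, for the widely expressed transporter GLUT1, had 207.0 and 223.6 CPM in Hif1a wild type, against 440.4 and 452.9 CPM in C57BL/6 wild type. The log2 fold change was -1.05 (SE 0.05, adjusted p = 3.89e-12). Pfkp, for an isoform of phosphofructokinase, had 134.1 and 136.5 CPM in Hif1a wild type, against 411.0 and 404.8 CPM in C57BL/6 wild type (-1.58, SE 0.05). The groups did not overlap for either gene, and neither lies on the shifted chromosomes. Both Hif1a wild type levels nevertheless stood above the 84.2 and 89.3 CPM of Slc2a1, and the 64.1 and 65.0 CPM of Pfkp, in Hif1a wild type at 20% oxygen.

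Pgk1, for phosphoglycerate kinase, fell by 0.71 on the log2 scale, and Ldha, for the lactate dehydrogenase A chain, fell by 0.69. Ldha had 368.6 and 458.0 CPM in Hif1a wild type, against 651.8 and 677.9 CPM in C57BL/6 wild type. Slc16a3, for the lactate exporter MCT4, had 91.3 and 113.6 CPM in Hif1a wild type, against 174.8 and 192.8 CPM in C57BL/6 wild type, a log2 fold change of -0.84 (SE 0.08). For all 3 genes the lower C57BL/6 library exceeded the higher Hif1a wild type library. On the shifted chromosomes, Hk2 (hexokinase 2) fell by 1.14, Ldhb (lactate dehydrogenase B chain) by 1.57 and Pdk1 (pyruvate dehydrogenase kinase) by 0.92, each more than its chromosome's median. Reads of Gapdh and other glycolytic genes with many processed copies may be split between copies, and their values are uncertain.

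**Figure D3:**
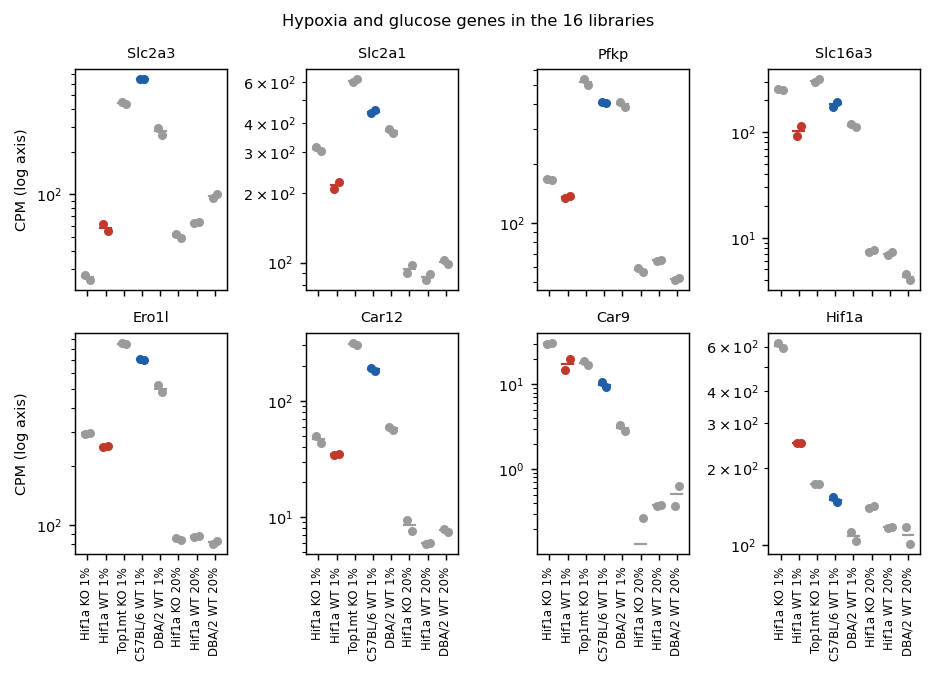
CPM (log axes) of 8 genes of the low oxygen response in the 16 libraries by group, with Hif1a wild type at 1% oxygen in red, C57BL/6 wild type at 1% in blue, the other groups in grey, points for libraries and bars for means. Slc2a3 stands at 54.7 to 61.8 CPM in red and 645.2 to 645.7 CPM in blue; Car9 and Hif1a are the panels in which red lies above blue, and a library with no Car9 read is not drawn.

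Hypoxia targets outside glycolysis were also lower in Hif1a wild type as a list. Of 40 tested genes 27 fell, against 33.9% of all genes, and 5 rose, against 24.3%, with a median of -0.46. Without chromosomes 2, 6 and 19, 21 of 34 fell and 5 rose, against 26.9% and 27.0% of all genes there, with a median of -0.39. Ero1l, which encodes an oxidase that forms disulphide bonds in the endoplasmic reticulum (chr14:45283087-45318771, minus strand, mm10), had 251.4 and 253.5 CPM in Hif1a wild type. C57BL/6 wild type had 712.0 and 701.6 CPM of Ero1l, and the log2 fold change was -1.48 (SE 0.05, adjusted p = 4.07e-15). In each group the replicates lay close together, and the groups did not overlap.

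The 2 membrane carbonic anhydrases of this list, enzymes that buffer acid at the cell surface, went in opposite directions. Car12 had 34.0 and 35.2 CPM in Hif1a wild type, against 192.9 and 182.1 CPM in C57BL/6 wild type (-2.40, SE 0.08, adjusted p = 3.41e-14). Car9 had 14.6 and 20.0 CPM in Hif1a wild type, against 10.6 and 9.22 CPM in C57BL/6 wild type (0.73, SE 0.16, adjusted p = 0.00046). The Car9 call was lost with a pseudocount of 0.1 (adjusted p = 0.0794). At 20% oxygen the Hif1a wild type libraries had 0.37 and 0.38 CPM of Car9 and 5.88 and 6.02 CPM of Car12.

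The other 4 targets that rose were Angptl4, Ndufa4l2, Hmox1 and Kdm4b. Angptl4, for a secreted inhibitor of lipoprotein lipase, had 104.5 and 129.3 CPM in Hif1a wild type, against 40.2 and 44.4 CPM in C57BL/6 wild type (1.44, SE 0.08). Ndufa4l2, for a mitochondrial protein induced by HIF, rose by 1.03, Hmox1, for haem oxygenase 1, by 0.34, and Kdm4b, for a histone demethylase, by 0.32 (these 3 were named after their values were seen). Vegfa, for the angiogenic growth factor, was not called, with 152.6 and 182.9 CPM in Hif1a wild type and 190.2 and 191.2 CPM in C57BL/6 wild type (-0.19, adjusted p = 0.0728). Without Hif1a wild type replicate 2 it was called lower (-0.32, adjusted p = 0.00706). Among those that fell, Nos2, for inducible nitric oxide synthase, had 49.4 and 61.1 CPM in Hif1a wild type, against 103.9 and 110.0 CPM in C57BL/6 wild type (-0.95, SE 0.14). Bnip3 fell by 0.50, and Mxi1, for a MYC antagonist on chromosome 19, fell by 1.30.

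The genes of the oxygen sensor itself differed among themselves. Of 13 tested components 2 rose and 6 fell, with a median of -0.09, and without the shifted chromosomes 2 of 11 rose and 4 fell. Hif1a (chr12:73901375-73947530, plus strand, mm10) had 250.7 and 250.7 CPM in Hif1a wild type, against 153.7 and 147.7 CPM in C57BL/6 wild type (0.73, SE 0.06, adjusted p = 2.79e-09). Its level was 116.5 and 118.0 CPM in Hif1a wild type at 20% oxygen. Between the 2 groups compared, Hif1a RNA was thus higher where glycolytic genes were lower. That order did not hold across the series. Libraries labelled Hif1a KO at 1% oxygen exceeded Hif1a wild type in both, with 618.2 and 593.2 CPM of Hif1a and glycolysis sums of 9417 and 9229 CPM. Crebbp, for a coactivator of HIF, was the other component that rose (0.45).

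The components that fell included brakes on HIF. Egln1, for the main prolyl hydroxylase, had 129.3 and 146.7 CPM in Hif1a wild type, against 225.6 and 243.2 CPM in C57BL/6 wild type (-0.76, SE 0.06). Vhl, for the ubiquitin ligase subunit that marks hydroxylated HIF for degradation, fell by 0.87 on chromosome 6. Epas1, for the related factor HIF2A, had 56.3 and 57.4 CPM in Hif1a wild type, against 81.3 and 82.3 CPM in C57BL/6 wild type (-0.52, SE 0.06). Arnt, the shared partner, was lower by 0.13 (adjusted p = 0.0228), a call that was lost under 8 alternatives, among them both other scalings and the omission of Hif1a wild type replicate 2 or of either C57BL/6 replicate. Top1mt, the gene targeted in the other C57BL/6 group, had 34.9 and 33.9 CPM in Hif1a wild type and 32.8 and 34.8 CPM in C57BL/6 wild type (0.02, adjusted p = 0.786).

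Stem cell self-renewal genes went both ways. Of 39 tested genes 12 rose and 20 fell, with a median of -0.17. All 7 members on chromosomes 2, 6 and 19 fell, with a median of -0.78, where 68.0% of all genes fell. Of the 32 elsewhere 12 rose and 13 fell, with a median of 0.09, against 27.0% and 26.9% of all genes there. Outside the shifted chromosomes the list thus held called genes in near equal numbers each way.

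Zbtb16, for the transcription factor PLZF that maintains spermatogonial stem cells (chr9:48654297-48836222, minus strand, mm10), had 279.2 and 282.3 CPM in Hif1a wild type. C57BL/6 wild type had 108.6 and 104.6 CPM of Zbtb16, and the log2 fold change was 1.39 (SE 0.05, adjusted p = 3.41e-14). At 20% oxygen the Hif1a wild type level was 385.4 and 392.8 CPM, and in DBA/2 wild type it was 164.8 and 178.0 CPM at 1% and 486.0 and 498.2 CPM at 20% oxygen. Hif1a wild type therefore had the highest Zbtb16 level of the 5 groups at 1% oxygen. Id4, for an inhibitor of differentiation that marks stem cells, rose by 0.45.

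The GDNF receptor genes were lower in Hif1a wild type. Gfra1 (chr19:58235604-58455909, minus strand, mm10) had 123.7 and 112.6 CPM in Hif1a wild type, against 293.1 and 282.7 CPM in C57BL/6 wild type (-1.28, SE 0.07, adjusted p = 5.55e-12). Ret had 197.6 and 193.5 CPM in Hif1a wild type, against 347.7 and 335.2 CPM in C57BL/6 wild type (-0.80, SE 0.04). Gfra1 and Ret lie on chromosomes 19 and 6, whose medians were -0.51 and -0.43. Etv5, a GDNF-induced transcription factor gene on chromosome 16, fell by 0.61, with 177.4 and 169.7 CPM in Hif1a wild type and 276.9 and 254.9 CPM in C57BL/6 wild type. Cd9, for a surface protein used to enrich these cells, and Ccnd2, for cyclin D2, fell by 0.81 and 0.76 on chromosome 6.

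Of 24 tested GDNF and FGF signalling components 7 rose and 10 fell (median -0.09). Without the shifted chromosomes 6 of 19 rose and 6 fell. The ligand genes Gdnf (-0.08) and Fgf2 (0.32) were not called, and Fgf8 fell by 1.03 (named after their values were seen). Ligand genes of other receptors were among those that rose. Kitl, for the ligand of the KIT receptor, had 53.1 and 57.9 CPM in Hif1a wild type, against 22.1 and 21.3 CPM in C57BL/6 wild type (1.32, SE 0.08). Cxcl12, for a chemokine that guides germ cells, had 157.7 and 184.9 CPM in Hif1a wild type, against 37.7 and 36.3 CPM in C57BL/6 wild type. Its log2 fold change was 2.18 (SE 0.10), although it lies on chromosome 6.

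Genes of spermatogonial differentiation were mixed. Of 22 tested 6 rose and 10 fell (median -0.19), and without the shifted chromosomes 5 of 16 rose and 6 fell. Stra8, induced by retinoic acid at the entry to differentiation and meiosis, had 69.6 and 81.9 CPM in Hif1a wild type, against 204.1 and 217.8 CPM in C57BL/6 wild type (-1.47, SE 0.08, chromosome 6). Kit, for the receptor that marks differentiating spermatogonia, fell by 0.30. Dnmt3b, for a DNA methyltransferase on chromosome 2, and Rhox13, for a homeobox factor on the X chromosome, fell by 0.75 and 0.91. Nanos3, for an RNA-binding protein of early germ cells, had 30.8 and 30.1 CPM in Hif1a wild type, against 8.90 and 8.60 CPM in C57BL/6 wild type (1.69, SE 0.09).

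Among 30 meiotic prophase genes 14 fell, against 33.9% of all genes, and 3 rose, against 24.3% (median -0.16). Without the shifted chromosomes 9 of 25 fell, against 26.9% of all genes there, and 2 rose, against 27.0% (median -0.14). Without C57BL/6 replicate 2, 9 of the 30 fell. Rec8, for a meiotic cohesin subunit, and Sycp3, for a lateral element of the synaptonemal complex, fell by 0.91 and 0.73. Sycp1, for the transverse filament of the same complex, rose by 0.64, with 96.4 and 94.8 CPM in Hif1a wild type and 56.6 and 65.7 CPM in C57BL/6 wild type.

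Germ cell identity genes were more often higher than lower in Hif1a wild type. Of 27 tested 14 rose and 6 fell (median 0.21), and without the shifted chromosomes 13 of 23 rose and 4 fell. Their summed level was 6111 and 5715 CPM in Hif1a wild type and 4972 and 4952 CPM in C57BL/6 wild type, so the labelled germ cell type had its markers in all 4 libraries. Ddx4, for the germline RNA helicase VASA, had 605.6 and 537.4 CPM in Hif1a wild type, against 469.2 and 438.7 CPM in C57BL/6 wild type (0.33, SE 0.06). Dazl rose by 0.21. The genes Tex19.1 and Tex19.2, which are known for the silencing of transposons in germ cells, were higher as well. Tex19.1 rose by 0.92, and Tex19.2 had 64.3 and 70.2 CPM in Hif1a wild type, against 28.2 and 29.2 CPM in C57BL/6 wild type. They are near copies of each other, so the split of reads between them is uncertain.

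Pou5f1, for the pluripotency factor OCT4 (chr17:35506018-35510772, plus strand, mm10), had 2.04 and 2.07 CPM in Hif1a wild type, against 35.7 and 35.4 CPM in C57BL/6 wild type (-3.58, SE 0.12, adjusted p = 2.27e-14). The Top1mt KO libraries had 26.5 and 24.8 CPM, and the other 5 groups had 0.71 to 5.78 CPM. The C57BL/6 groups therefore held the highest Pou5f1 levels of the series. Of 12 tested pluripotency genes 5 rose and 3 fell (median -0.01), as did 5 and 3 of the 11 outside the shifted chromosomes. Of these Zfp42 and Klf4 rose by 1.02 and 0.63, so not all of the list went the way of Pou5f1.

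Feeder fibroblast markers were higher in Hif1a wild type in the main. Of 31 tested 16 rose and 8 fell (median 0.31), and without the shifted chromosomes 14 of 24 rose and 4 fell (median 0.47). Their summed level was 31026 and 39595 CPM in Hif1a wild type, against 25583 and 25904 CPM in C57BL/6 wild type, a ratio of 1.37. No member was at 0 in all 4 libraries. The 2 Hif1a wild type libraries differed in this sum by more than the lower of them differed from C57BL/6.

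Col3a1, for the fibrillar collagen III chain (chr1:45311538-45349706, plus strand, mm10), had 5535 and 7033 CPM in Hif1a wild type, against 2312 and 2261 CPM in C57BL/6 wild type (1.45, SE 0.11, adjusted p = 1.55e-09). Pdgfra, for a growth factor receptor of mesenchymal cells, had 109.9 and 115.7 CPM in Hif1a wild type, against 32.3 and 28.9 CPM in C57BL/6 wild type (1.85, SE 0.07). The small proteoglycan genes Lum and Dcn rose by 1.81 and 1.19. Col1a1 rose by 0.50, a call that was lost without Hif1a wild type replicate 2 (0.28, adjusted p = 0.0569).

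Of the 8 markers that fell, the 2 with the largest falls were Tagln and Acta2. Acta2, for smooth muscle actin, had 102.8 and 133.9 CPM in Hif1a wild type, against 327.1 and 340.3 CPM in C57BL/6 wild type (-1.499, SE 0.107, chromosome 19). Tagln, for transgelin, had 66.3 and 89.4 CPM in Hif1a wild type, against 246.2 and 263.4 CPM in C57BL/6 wild type (-1.71, SE 0.11, chromosome 9). The other 6 were Vim, Lgals1, Ccn2, Fap, Mgp and Timp1, with log2 fold changes of -0.77 to -0.38 (named after their values were seen). The feeder markers thus did not share 1 direction between the groups.

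Secreted inflammatory proteins rose the most as a list. Of 20 tested acute phase, chemokine and cytokine genes 17 rose and 2 fell, 15 of them by a log2 fold change of at least 1, against 2.59% of all genes. The median was 1.53, and without the shifted chromosomes 13 of 16 rose and 2 fell, with the same median. The sum over the list was 2343 and 2691 CPM in Hif1a wild type, against 739 and 692 CPM in C57BL/6 wild type, a ratio of 3.52. The feeder marker sum beside it had a ratio of 1.37, and its part in this result was not tested.

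Cxcl5, for a neutrophil chemokine (chr5:90759360-90761624, plus strand, mm10), had 234.9 and 277.1 CPM in Hif1a wild type, against 21.5 and 18.4 CPM in C57BL/6 wild type (3.61, SE 0.13, adjusted p = 4.3e-14). Hp, for the haemoglobin scavenger haptoglobin, had 67.8 and 63.1 CPM in Hif1a wild type, against 6.20 and 8.24 CPM in C57BL/6 wild type (3.03, SE 0.15). Saa3, for an acute phase serum amyloid, had 253.1 and 289.9 CPM in Hif1a wild type, against 46.7 and 37.6 CPM in C57BL/6 wild type (2.66, SE 0.12). The groups were far apart for all 3. Ccl7, for a monocyte chemokine, rose by 2.05. The 2 that fell were Il11, by 1.07, and Cxcl16, by 0.33 (named after their values were seen).

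In Hif1a wild type at 20% oxygen Cxcl5 had 48.1 and 48.4 CPM, Saa3 24.4 and 23.2 CPM and Hp 7.66 and 9.23 CPM. These 20% levels lay below those of Hif1a wild type at 1% oxygen, and for Hp they overlapped the C57BL/6 values. The Hif1a KO libraries at 1% oxygen had more than either group, with 508.2 and 487.0 CPM of Cxcl5. Their feeder marker sums were 70260 and 68652 CPM, against 31026 and 39595 CPM in Hif1a wild type at 1% oxygen. Despite the KO label they also had the highest Hif1a RNA of the series, 618.2 and 593.2 CPM. The parts of feeders and of the genotype label in these levels were not tested.

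**Figure D4:**
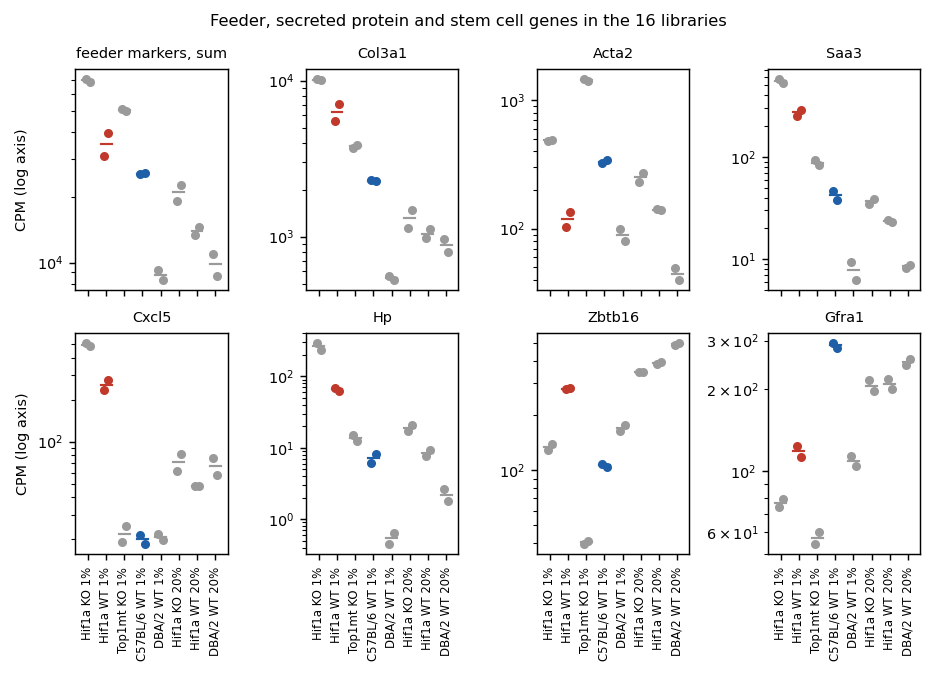
CPM (log axes) of the summed feeder markers and of 7 genes in the 16 libraries by group, with Hif1a wild type at 1% oxygen in red, C57BL/6 wild type at 1% in blue and the other groups in grey; points are libraries and bars means. Red lies above blue for the feeder sum, Col3a1, Saa3, Cxcl5, Hp and Zbtb16, and below blue for Acta2 and Gfra1.

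Extracellular proteases and their inhibitors were mostly higher. Of 20 tested 12 rose and 6 fell (median 0.57), and without the shifted chromosomes 12 of 19 rose and 5 fell. Mmp13, for a collagenase, had 176.9 and 169.9 CPM in Hif1a wild type, against 36.0 and 23.7 CPM in C57BL/6 wild type (2.53, SE 0.13). Mmp2, for a gelatinase, rose by 1.33, and the metalloproteinase genes Adamts2 and Adamts5 rose by 1.55 and 1.24.

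Immediate early genes, which respond within minutes to growth factors and to handling, rose in 16 of 20 cases and fell in 1 (median 0.55), and without the shifted chromosomes 16 of 19 rose. Fos had 591.6 and 656.4 CPM in Hif1a wild type, against 310.4 and 309.2 CPM in C57BL/6 wild type (1.01, SE 0.08). Jun and Egr1 rose by 1.10 and 0.42, and Zfp36, for a protein that destabilises inflammatory mRNAs, rose by 1.32. The gene that fell was Jund, by 0.55 (named after its value was seen). Handling before lysis is not described in the labels, and its part in these values was not tested.

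Interferon response genes rose in 16 of 28 cases and fell in 3 (median 0.39), and without the shifted chromosomes 14 of 22 rose and 3 fell. Irf1, for an interferon-regulated transcription factor, had 305.0 and 320.6 CPM in Hif1a wild type, against 162.7 and 150.2 CPM in C57BL/6 wild type (1.00, SE 0.06). Ifih1, for the double-stranded RNA sensor MDA5, rose by 1.91 although it lies on chromosome 2, and Gbp2 rose by 0.95. Oasl2 went the other way, with 6.85 and 6.73 CPM in Hif1a wild type and 55.1 and 51.2 CPM in C57BL/6 wild type (-2.80, SE 0.14).

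Antigen presentation genes went both ways. Of 16 tested 6 rose and 8 fell (median -0.14), and without the shifted chromosomes 6 of 15 rose and 6 fell. H2-K1, a classical class I gene, had 103.6 and 117.0 CPM in Hif1a wild type, against 153.8 and 163.9 CPM in C57BL/6 wild type (-0.52, SE 0.06), and B2m, its light chain on chromosome 2, fell by 0.36. Nlrc5, for the transactivator of class I genes, rose by 1.45, Erap1, for a peptide-trimming protease, by 1.02, Psmb10, for an immunoproteasome subunit, by 0.95 and Tapbp, for the loading factor tapasin, by 0.84. Tap1, for a subunit of the peptide transporter, fell by 0.39 (named after its value was seen). Class I genes are highly similar and differ between strains, so reads can be lost or shared among them, and their levels are uncertain.

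**Figure D5:**
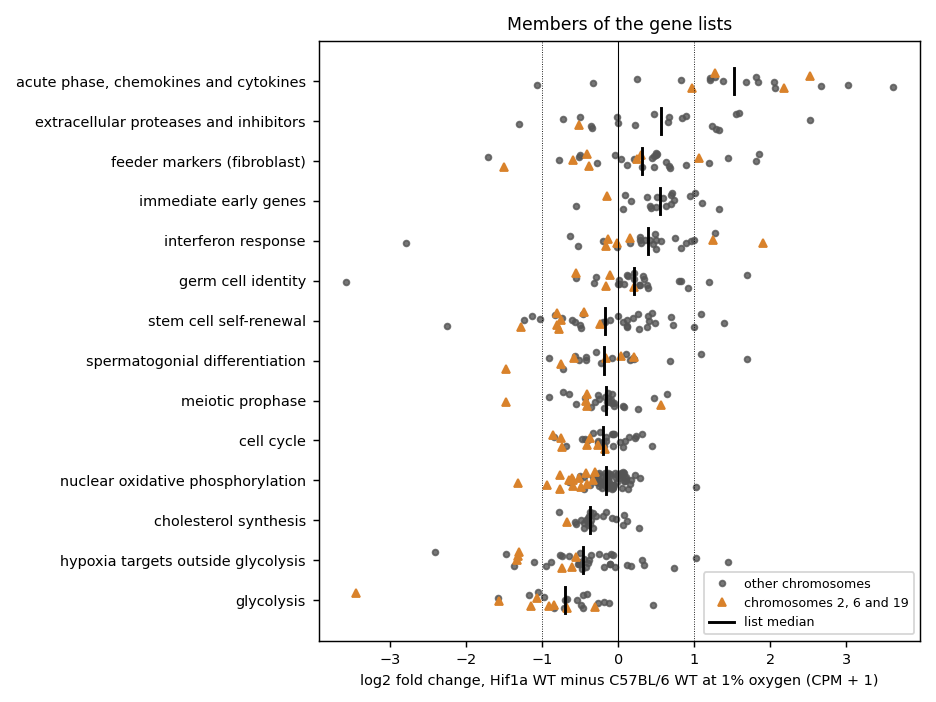
Log2 fold change, Hif1a wild type minus C57BL/6 wild type at 1% oxygen, of each tested member of 14 gene lists; triangles mark genes on chromosomes 2, 6 and 19, bars list medians and dotted lines a log2 fold change of 1 in either direction. Medians run from 1.53 for acute phase and chemokine genes to -0.69 for glycolysis.

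Mitochondrial genes of the nucleus were lower in part. Of 75 tested oxidative phosphorylation genes 38 fell and 4 rose (median -0.16). All 14 on the shifted chromosomes fell, where 68.0% of all genes did. Of the 61 elsewhere 24 fell, against 26.9%, and 4 rose, against 27.0% (median -0.10). With other scalings or count models 7 to 9 genes of the list rose. Atp5c1, for an ATP synthase subunit on chromosome 2, had 147.4 and 130.4 CPM in Hif1a wild type, against 267.2 and 265.8 CPM in C57BL/6 wild type (-0.94, SE 0.05). Of 13 genes of the mitochondrial genome 6 were listed at 0 in all 4 libraries, so the other 7 are a partial view. Of those mt-Nd6 was higher, with 29.1 and 27.1 CPM in Hif1a wild type and 10.8 and 14.4 CPM in C57BL/6 wild type (1.11, SE 0.12). It lies on the minus strand (chrM:13552-14070) and overlaps mt-Nd5 (chrM:11742-13565, plus strand) only at an end. Without a stated strand setting its reads are uncertain. Without Hif1a wild type replicate 1 only 1 gene of this genome rose, and without Hif1a wild type replicate 2 there were 5.

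Cell cycle genes fell in 21 of 33 cases and rose in 4 (median -0.20). Without the shifted chromosomes 13 of 26 fell and 4 rose. Rrm2, for a ribonucleotide reductase subunit, fell by 0.69, E2f1 and Pcna fell by 0.85 and 0.74 on chromosome 2, and Mki67, a marker of cycling cells, rose by 0.31. Of 7 inhibitors of cyclin-dependent kinases 3 fell and 1 rose (median -0.03), and without the shifted chromosomes 2 of 6 fell and 1 rose. Cdkn1b and Cdkn2d fell by 1.24 and 1.17. Cdkn1a rose by 0.29 (adjusted p = 0.0214), a call that was lost without Hif1a wild type replicate 2 or either C57BL/6 replicate. Of 6 topoisomerase genes 2 rose and 1, on a shifted chromosome, fell (median 0.04), and of 14 histone genes, all on other chromosomes, 3 rose and 2 fell (median 0.19). Without C57BL/6 replicate 2 only 1 histone gene rose, and without Hif1a wild type replicate 1 only 1 fell.

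Cholesterol synthesis genes fell in 16 of 25 cases and rose in 2 (median -0.37), and of the 24 outside the shifted chromosomes 15 fell and 2 rose. Sc5d and Dhcr7, for late enzymes of the pathway, fell by 0.77 and 0.57. Fdft1, for squalene synthase, had 113.7 and 108.0 CPM in Hif1a wild type, against 156.5 and 147.1 CPM in C57BL/6 wild type (-0.45, SE 0.05).

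Antioxidant genes under NRF2 rose in 10 of 27 cases and fell in 11 (median 0.02), and without the shifted chromosomes 10 of 23 rose and 7 fell. Gsta3, for a glutathione transferase, and Sod3, for the extracellular superoxide dismutase, rose by 2.14 and 1.74, while Me1, for malic enzyme, and Gpx4, for an enzyme that reduces lipid peroxides, fell by 0.85 and 0.63. Of 22 p53 targets 8 rose and 5 fell (median 0.09), and without the shifted chromosomes 7 of 20 rose and 5 fell. Btg2, for an antiproliferative protein, rose by 0.59, and Bbc3, for the cell death protein PUMA, fell by 0.72. Without C57BL/6 replicate 2 only 5 p53 targets rose, and without Hif1a wild type replicate 1 or C57BL/6 replicate 1 only 3 fell. Of 25 genes of the stress and unfolded protein response 6 rose and 9 fell (median 0.06), close to the shares of 24.3% and 33.9% over all genes. Outside the shifted chromosomes 6 of 17 rose and 3 fell. With either other scaling or edgeR 10 of the 25 rose. Ddit3, for the stress factor CHOP, had 34.4 and 43.8 CPM in Hif1a wild type, against 19.6 and 20.9 CPM in C57BL/6 wild type (0.91, SE 0.11).

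Markers of other cell types were low. Summed leukocyte markers had 41.9 and 43.5 CPM in Hif1a wild type and 35.1 and 32.7 CPM in C57BL/6 wild type, and 4 of 11 tested rose and 1 fell. Lyz2, for the lysozyme of macrophages, had 11.3 and 13.7 CPM in Hif1a wild type, against 4.07 and 2.59 CPM in C57BL/6 wild type (1.65, SE 0.33). Summed endothelial markers had 52.0 and 46.6 CPM in Hif1a wild type and 76.8 and 78.6 CPM in C57BL/6 wild type, with 1 of 7 higher and 4 lower. The higher one, Tek, was not called without C57BL/6 replicate 1 (adjusted p = 0.0598). Testis somatic markers summed to 234.4 and 260.4 CPM in Hif1a wild type and 284.5 and 279.4 CPM in C57BL/6 wild type, and 1 of 12 tested rose and 5 fell. Of the 22 testis somatic markers listed 2 were at 0 in all 4 libraries, and of the leukocyte and endothelial markers 0. Without the shifted chromosomes 3 of 10 leukocyte markers rose and 1 fell, 1 of 5 endothelial markers rose and 3 fell, and 1 of 11 testis somatic markers rose and 4 fell.

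Among the genes with the largest rises, some were low in both C57BL/6 groups and higher in the other 6. Col6a6, for a collagen VI chain (chr9:105687809-105828160, minus strand, mm10), had 47.7 and 52.0 CPM in Hif1a wild type, against 3.32 and 2.43 CPM in C57BL/6 wild type (3.72, SE 0.10, adjusted p = 1.67e-15). Top1mt KO had 1.15 and 1.38 CPM of Col6a6, and the 6 groups of other backgrounds ran from 27.4 to 52.0 CPM. The homeobox gene Rhox5 had 10.1 and 9.51 CPM in Hif1a wild type, against 0.38 and 0.62 CPM in C57BL/6 wild type (2.85, SE 0.15). Col19a1, Stxbp5l and Tpm3-rs7 rose by 3.17, 2.81 and 2.75 and were likewise lowest in the 2 C57BL/6 groups, although reads of Tpm3-rs7 may be shared with Tpm3, which it resembles.

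For other large rises Hif1a wild type at 1% oxygen also lay above the same line at 20%. Chl1, for a neural adhesion molecule (chr6:103510586-103750211, plus strand, mm10), had 98.4 and 104.1 CPM in Hif1a wild type at 1% oxygen, against 9.21 and 6.99 CPM in C57BL/6 wild type (3.50, SE 0.13). Hif1a wild type at 20% oxygen had 8.88 and 11.1 CPM of Chl1. Steap4, for a metalloreductase, had 145.8 and 175.9 CPM in Hif1a wild type, against 24.3 and 22.4 CPM in C57BL/6 wild type (2.73, SE 0.13), and 9.01 and 11.8 CPM in Hif1a wild type at 20% oxygen. Lpl, for lipoprotein lipase, the WNT antagonist gene Sfrp4 and the kininogen gene Kng2 rose by 2.65, 2.70 and 2.76, and were likewise lower in the same line at 20% oxygen. The eotaxin gene Ccl11 rose by 2.62, but had 8.03 and 5.88 CPM in Hif1a wild type at 20% oxygen, close to the 7.51 and 6.73 CPM at 1%.

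Sfi1, for a centrosomal protein, had 285.0 and 302.9 CPM in Hif1a wild type, against 39.2 and 41.1 CPM in C57BL/6 wild type (2.84, SE 0.06). Top1mt KO, of the same background as C57BL/6 wild type, had 195.0 and 213.7 CPM. Reads of Sfi1 may be shared with related sequences elsewhere in the genome, so its level is uncertain.

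Among the largest falls, Pkd2l1, for an ion channel on chromosome 19, had 1 and 0 reads in the Hif1a wild type libraries, against 21.49 and 21.96 CPM in C57BL/6 wild type. The keratin genes Krt19 and Krt8 fell by 3.31 and 2.80, the tight junction gene Cldn7 by 2.83 and the epithelial factor gene Elf3 by 2.76. Krt19 had 7.07 and 8.15 CPM in Hif1a wild type, against 81.4 and 86.8 CPM in C57BL/6 wild type. Pgf, for placental growth factor, had 8.16 and 12.3 CPM in Hif1a wild type, against 87.2 and 86.7 CPM in C57BL/6 wild type (-2.99, SE 0.14).

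Further falls were those of Sncb, Stmn4, Atp2b2 and Crmp1. Sncb, for beta-synuclein, fell by 3.27, Stmn4, for a microtubule-destabilising protein, by 2.90, Atp2b2, for a calcium pump, by 2.99 and Crmp1, for a growth cone protein, by 2.85. Agap2, for a GTPase-activating protein, had 3.43 and 2.98 CPM in Hif1a wild type, against 48.9 and 48.6 CPM in C57BL/6 wild type (-3.57, SE 0.11). Olah, for a thioesterase on chromosome 2, fell by 2.69. These genes were picked from those without overlap between the groups, which held for 75.4% of all genes tested. Sncb and Stmn4 were low in Hif1a wild type, with 0.22 and 0.66 CPM of Sncb and 0.29 and 0.76 CPM of Stmn4.

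Genes known for alleles that differ between laboratory strains gave 5 higher and 4 lower calls among 14 tested (median -0.04), and 4 and 3 among the 12 outside the shifted chromosomes. Casp4, for an inflammatory caspase, had 20.9 and 19.8 CPM in Hif1a wild type, against 5.201 and 4.455 CPM in C57BL/6 wild type (1.88, SE 0.13), and Trim12a rose by 1.54. Nnt, whose allele in some C57BL/6 substrains lacks exons, had 22.7 and 25.4 CPM in Hif1a wild type and 20.4 and 19.8 CPM in C57BL/6 wild type (0.25, adjusted p = 0.0391). That call was lost when any library but Hif1a wild type replicate 1 was left out, and a gene-level count cannot show missing exons. Of 21 imprinted genes 7 rose and 9 fell (median -0.13), and without the shifted chromosomes 6 of 16 rose and 5 fell. Peg3 rose by 0.66, and Dlk1, for a Delta-like membrane protein, had 25.5 and 29.5 CPM in Hif1a wild type, against 55.0 and 59.7 CPM in C57BL/6 wild type (-1.03, SE 0.09).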

How the data were processed

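Polyadenylated RNA of 16 libraries was sequenced from a stranded TruSeq kit, per the labels. The values are CPM as deposited, over 21924 protein-coding genes. The submitters' processing notes name cutadapt 1.16, STAR 2.6.0c, HTSeq 0.11.2, DESeq2 1.22.2 and build mm10. Their roles, the annotation and the strand setting of the counting are not given in the sources used here, so antisense and overlapping genes are uncertain. Divided by the CPM of 1 read, 100% of the deposited CPM came out whole (tolerance 0.01), so reads were recovered. On these, edgeR called 4324 genes higher and 4369 lower.

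The main test was limma 3.58.1 (R 4.3.3) on log2(CPM + 1), with 1 mean per group over all 16 libraries (8 residual degrees of freedom), a trended empirical Bayes step, no replicate block and Benjamini-Hochberg adjustment over 14841 genes. Alternatives were pseudocounts, filters, scalings, edgeR 4.0.16, DESeq2 1.42.0, left-out replicates and left-out chromosomes.

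Named genes were the 15 largest and 15 smallest fold changes among called genes without overlap and with a group mean of at least 5 CPM. To these came, from each list, the 4 genes of lowest adjusted p with a mean of at least 1 CPM, and a fixed set of marker genes. A few named genes are not reported here. The members and lists were chosen with earlier results of these data known. Lists are described by counts and medians, with no test of the list. Coordinates come from the GENCODE M21 annotation of mm10, which 21894 of the 21924 symbols matched to 1 gene.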

Additional observations from a re-analysis of the deposited data

How the results depend on the processing

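Of 166 named genes, 153 kept their direction and their side of the threshold under each of the 18 alternatives that gave them a value, 13 did not, and none reversed. Genes of chromosomes 2, 6 and 19, feeder markers and low genes have no value where the setting leaves them out. The genes described with a lost or gained call carry it beside their values. Left-out replicates gave 3015 to 3367 higher and 4304 to 4681 lower genes, and 374 to 416 higher and 516 to 608 lower ones by a log2 fold change of at least 1. Among counts by that fold, a pseudocount of 0.1 gave 628 higher and 925 lower, and a pseudocount of 2 gave 355 lower. edgeR gave 722 higher and 857 lower, and DESeq2 gave 677 higher and 815 lower. Leaving out chromosomes 2, 6 and 19, chosen after seeing the data, gave 3349 lower genes in all and 361 by that fold. The chromosome 2 median was -0.36 under median-of-ratios scaling, -0.37 under TMM scaling, -0.36 with edgeR, -0.37 with DESeq2 and -0.41 after rescaling without the feeder markers. The chromosome 6 median was -0.37, -0.37, -0.38 and -0.38 under the same first 4 settings, and -0.44 to -0.42 with a replicate left out. The chromosome 19 median was -0.45, -0.45, -0.46 and -0.46. The cause of these moves was not tested.

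The replicate numbers are shared between the groups but do not pair them by any label, and same-numbered libraries of the 2 groups correlated at 0.10 in their deviations. With the replicate block, 3679 genes were higher and 5096 lower, and no call of a named gene changed. Depth limits values of a few reads, such as Pkd2l1 in Hif1a wild type.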

Other observations

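Chromosome medians also stood apart in groups outside the comparison. On the centred scale used above, chromosome 16 genes were low in the Hif1a KO libraries at 1% oxygen, at -0.21 and -0.17. They were also low in Top1mt KO, at -0.12 and -0.14. They lay between -0.02 and 0.06 in the other 12 libraries. X-linked genes were highest in DBA/2 wild type at 1% oxygen, at 0.13 and 0.08. These values were not tested.

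Levels of Gfra1, Crmp1 and Kng2 are set here beside those of other groups of the series. Gfra1 had 123.7 and 112.6 CPM in Hif1a wild type and 293.1 and 282.7 CPM in C57BL/6 wild type, while DBA/2 wild type at 1% oxygen had 114.1 and 104.1 CPM and Top1mt KO had 54.3 and 59.8 CPM. Among the 5 groups at 1% oxygen, C57BL/6 wild type thus had the highest Gfra1 level. Crmp1 had 4.37 and 4.71 CPM in Hif1a wild type at 1% oxygen, against 32.2 and 30.8 CPM in the same line at 20% oxygen and 40.4 and 37.3 CPM in C57BL/6 wild type. In Hif1a KO at 1% oxygen Crmp1 was low too, with 10.64 and 9.314 CPM. Kng2 had 74.3 and 57.4 CPM in Hif1a KO at 1% oxygen, against 18.9 and 17.3 CPM in Hif1a wild type at 1% oxygen. C57BL/6 wild type had 2.005 and 1.658 CPM of Kng2.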
